A study of Homo sapiens with 12 samples.

Results

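The insulin-like growth factor (IGF) and insulin receptor genes were followed through a transcription block in a Ewing sarcoma line. The set comprised 9 genes, chosen by symbol from the 26334 gene symbols of the count table: the receptors IGF1R, INSR and IGF2R, the adaptors IRS1 and IRS2, the receptor inhibitor GRB10, and the binding proteins IGFBP2, IGFBP3 and IGFBP5. Of these, 8 averaged 10 counts or more over all libraries and were tested among 12032 genes, and GRB10 did not. The cells are labelled shA673-1c, with CTL in the label of every library, and come from A673, an established Ewing sarcoma line. They were grown in serum-containing medium with blasticidin and zeocin and received 5 µM actinomycin D for 0, 1, 2 or 4 h, with 3 biological replicates at each of the 4 times and thus 12 libraries of poly(A) RNA. The 0 h cultures were the reference, and no vehicle arm is used here.

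IGF1R and INSR are receptor tyrosine kinases that recruit IRS1 and IRS2, which in turn dock phosphatidylinositol 3-kinase (PI3K) and pass the signal to AKT, mTOR and the FOXO transcription factors. IGF2R carries IGF2 to the lysosome and does not signal as a kinase, while the IGFBP family binds IGFs outside the cell. Ewing sarcoma cells are known for their reliance on IGF1R signalling. Actinomycin D stops RNA synthesis, so that a transcript's level afterwards follows its decay relative to that of the other transcripts.

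Library totals ranged from 9147018 to 11194705 counts. Levels are given as CPM, each count divided by its library's size after scaling with the trimmed mean of M-values (TMM), so each is a share of the library and not an amount per cell, and fewer cells or less RNA per cell cannot be told apart from these values. Of 12 Ewing sarcoma markers, 10 had a mean of at least 10 counts and CD99 was at 0 in all libraries, while of 12 markers of other cell types DES alone reached that mean, with 4 at 0. The summed level of the latter ranged from 0.798 to 2.22 CPM at 0 h and from 2.69 to 3.79 CPM at 4 h, and their part in the results was not tested. The short-lived transcripts MYC, JUN and IER2 fell with slopes of −1.12, −0.89 and −0.84 log2 per hour.

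Among the receptors, the transcripts of both kinases declined slowly and that of IGF2R rose as a share of the library. IGF1R stood at 62.5, 46.3 and 47.2 CPM in the 3 replicates at 0 h, at 53.5, 50.9 and 49.2 CPM at 1 h, at 47.5, 44.3 and 39.8 CPM at 2 h, and at 43.8, 37.1 and 39.7 CPM at 4 h. All 4 h values lay below all 0 h values, although replicate 1 alone accounted for the high value at 0 h. The slope of IGF1R was −0.10 ± 0.027 log2 per hour (SE, n = 12; edgeR adjusted p = 0.00347), which corresponds to a half-life of 9.90 h (95% interval from the SE, 6.52 to 20.5 h). The interval reaches far beyond the 4 h sampled and, like those given below, holds for the TMM scale only. INSR, the insulin receptor, was the lower of the kinases, with 18.5, 14.5 and 19.2 CPM at 0 h, 13.4, 15.4 and 16.7 CPM at 1 h, 12.6, 13.1 and 15.2 CPM at 2 h, and 9.23, 11.3 and 11.3 CPM at 4 h. Again the 0 h and 4 h values did not overlap. Its slope was −0.17 ± 0.033 log2 per hour (SE, n = 12; edgeR adjusted p = 0.000222), a half-life of 5.72 h (4.17 to 9.09 h). INSR thus stood at 61.2% of its 0 h mean at 4 h, and IGF1R at 77.3%.

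IGF2R, the sink for IGF2, moved the other way. It measured 352, 235 and 268 CPM at 0 h, 322, 269 and 281 CPM at 1 h, 394, 320 and 345 CPM at 2 h, and 438, 362 and 373 CPM at 4 h. The lowest 4 h library was above the highest 0 h library, and replicate 1 was the highest at every time. The slope was 0.12 ± 0.030 log2 per hour (SE, n = 12; edgeR adjusted p = 0.00189) on the TMM scale, and −0.015 log2 per hour when libraries were scaled to GAPDH plus ACTB instead (edgeR adjusted p = 0.653). AIRN, annotated antisense to IGF2R, had at most 1 count in any library.

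**Figure D1:**
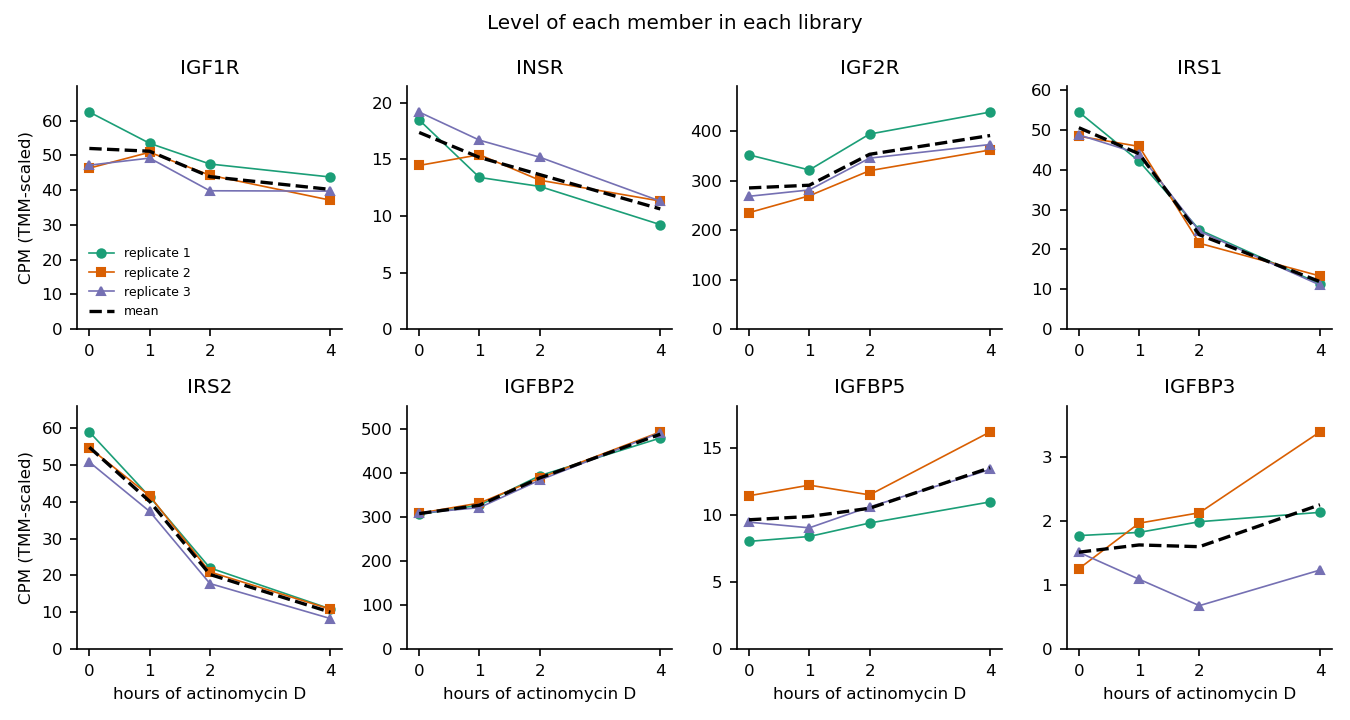
TMM-scaled CPM (y axis, linear from 0, a scale of its own in each panel) against hours of actinomycin D (x axis) for the 8 tested genes. Each symbol is 1 library, thin lines join libraries with the same replicate number, and the dashed line is the mean of 3 replicates. IRS1 and IRS2 fall from 50.5 and 54.8 CPM to 11.9 and 10.0 CPM, IGFBP2 rises from 308 to 488 CPM on this scale, and the replicates of IGFBP3 diverge.

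The adaptors showed the largest changes of the set. IRS1, the adaptor first described for the insulin receptor, fell from 54.4, 48.4 and 48.7 CPM at 0 h to 42.1, 45.8 and 44.0 CPM at 1 h, 24.9, 21.5 and 24.6 CPM at 2 h, and 11.4, 13.3 and 11.1 CPM at 4 h. IRS2, its close relative, fell from 58.9, 54.6 and 50.7 CPM at 0 h to 41.3, 41.6 and 37.4 CPM at 1 h, 22.0, 20.9 and 17.8 CPM at 2 h, and 10.9, 10.8 and 8.28 CPM at 4 h. For both genes, the values of each time point lay below all values of the time point before. The slope of IRS1 was −0.55 ± 0.036 log2 per hour (SE, n = 12; edgeR adjusted p = 4.50e-09), or a half-life of 1.83 h (1.62 to 2.10 h). That of IRS2 was −0.64 ± 0.036 log2 per hour (SE, n = 12; edgeR adjusted p = 1.38e-09), or 1.57 h (1.41 to 1.76 h). Counted from the steepest fall, IRS2 ranked 267 and IRS1 ranked 447 of 12032 genes, and both slopes were below the lowest 5% limit of all tested genes (−0.49 log2 per hour). At 4 h, 23.7% of the IRS1 level and 18.3% of the IRS2 level was left by the fitted 4 h against 0 h contrast.

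GRB10, which binds these receptors and dampens their signal, had 0 counts in all 12 libraries. A count of 0 allows up to 3 counts per library, or 0.268 to 0.328 CPM by the library totals, for counting error only and only if reads of the gene were counted under this symbol, which was not tested. CD99, a defining marker of Ewing sarcoma, was likewise at 0 in all libraries. No change could be measured for it.

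The letters of the 3′ untranslated regions (3′UTRs) are shown here because AU-rich stretches in them are textbook marks of unstable mRNAs. Features were read from the canonical transcripts of GENCODE version 44 on GRCh38, matched by symbol, and which isoforms these cells used was not measured. IRS1 (chromosome 2, 226731312 to 226799820, minus strand) has a 3′UTR of 4960 bases with 13 copies of ATTTA, and IRS2 (chromosome 13, 109752695 to 109786583, minus strand) has one of 3609 bases with 11 copies. Each holds 1 copy of TATTTAT, which contains ATTTA. IGFBP2 (chromosome 2, 216632828 to 216664436, plus strand), which rose as a share of the library, also holds 1 TATTTAT in a 3′UTR of only 332 bases. The sites are given with their flanks, 29 bases of the sense strand each, with the TATTTAT letters in capitals.
IRS1 3′UTR, chr2:226733080-226733108, minus strand: cggaaactttaTATTTATttactgcaggt
IRS2 3′UTR, chr13:109753834-109753862, minus strand: ataaagtacatTATTTATgaaatgaatac
INSR 3′UTR, chr19:7115038-7115066, minus strand: tattgctatctTATTTATatgattcggga
IGF2R 3′UTR, chr6:160105455-160105483, plus strand: ttctctcccccTATTTATtgactttgaca
IGFBP2 3′UTR, chr2:216664208-216664236, plus strand: tctgacacacgTATTTATatttggaaaga

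These letters were common. On the sense strand, ATTTA was in 77.0% and TATTTAT in 38.6% of the 3′UTRs of at least 100 bases of 10513 tested genes. Among 3′UTRs within 20% of the length of that of IRS1, 72.0% of 980 held TATTTAT and the median number of ATTTA was 11, and for IRS2 the values were 60.5% of 1364 and 8. IRS1 and IRS2 thus held 13 and 11 copies of ATTTA against medians of 11 and 8 at like length. IGF1R (chromosome 15, 98648539 to 98964530, plus strand) has the longest 3′UTR of the set, 7088 bases with 12 ATTTA and 0 TATTTAT. INSR (chromosome 19, 7112255 to 7294414, minus strand) has 10 ATTTA and 2 TATTTAT in 4791 bases, of which the upstream one is printed, and IGF2R (chromosome 6, 159969082 to 160113507, plus strand) has 4 ATTTA and 1 TATTTAT in 6420 bases. IGFBP5 (chromosome 2, 216672105 to 216695549, minus strand) has 8 ATTTA and 2 TATTTAT in 4646 bases, while IGFBP3 (chromosome 7, 45912245 to 45921874, minus strand) and GRB10 (chromosome 7, 50590063 to 50793462, minus strand) hold 1 TATTTAT each. The longer TTATTTATT was in none of the 9 and in 10.4% of all. TATTTAT therefore occurred in genes that fell (IRS1, IRS2, INSR) and in genes that rose on the TMM scale (IGF2R, IGFBP2, IGFBP5), of which IGF2R and IGFBP5 had slopes below 0 after scaling to GAPDH plus ACTB.

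Among the binding proteins, IGFBP2 was abundant and rose steadily as a share of the library, IGFBP5 rose to a smaller extent, and IGFBP3 was too scarce for a call. IGFBP2 stood at 306, 308 and 309 CPM at 0 h, 327, 332 and 321 CPM at 1 h, 394, 389 and 384 CPM at 2 h, and 479, 493 and 492 CPM at 4 h. Replicates lay within a few percent of each other, and no value of a time point overlapped with the time point before. The slope was 0.17 ± 0.012 log2 per hour (SE, n = 12; edgeR adjusted p = 5.64e-09), above 95.6% of tested genes, and 0.036 log2 per hour after scaling to GAPDH plus ACTB (edgeR adjusted p = 0.103). IGFBP5 measured 8.05, 11.5 and 9.49 CPM at 0 h, 8.42, 12.3 and 9.07 CPM at 1 h, 9.43, 11.5 and 10.6 CPM at 2 h, and 11.0, 16.2 and 13.4 CPM at 4 h. Its time points overlapped, since replicate 2 was the highest and replicate 1 the lowest at every time, while each replicate alone gave a similar slope (0.12, 0.12 and 0.14 log2 per hour). The common slope was 0.13 ± 0.042 log2 per hour (SE, n = 12; edgeR adjusted p = 0.0140), which turned to −0.0087 log2 per hour after scaling to GAPDH plus ACTB. Without replicate 3 the slope of IGFBP5 was 0.12 log2 per hour and no longer passed the threshold (edgeR adjusted p = 0.0759). The IGFBP2 and IGFBP5 genes lie next to each other on chromosome 2, 7668 bases apart with 0 annotated genes between them.

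IGFBP3, the main carrier of IGFs in blood, had between 7 and 35 counts per library. These correspond to 1.77, 1.25 and 1.51 CPM at 0 h, 1.82, 1.96 and 1.09 CPM at 1 h, 1.98, 2.12 and 0.677 CPM at 2 h, and 2.13, 3.38 and 1.23 CPM at 4 h. The replicates did not share a direction, with slopes of 0.07, 0.32 and −0.09 log2 per hour taken alone. The common slope of 0.15 ± 0.093 log2 per hour (SE, n = 12) did not pass the threshold (edgeR adjusted p = 0.173), and did so without replicate 3 (0.21 log2 per hour; edgeR adjusted p = 0.0253). At this depth no change of IGFBP3 was detectable.

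In all, 4 of 8 tested genes fell (IGF1R, INSR, IRS1, IRS2) and 3 rose on the TMM scale (IGF2R, IGFBP2, IGFBP5), where 32.1% of all tested genes fell and 30.7% rose. The 4 h against 0 h contrast called the same 4 and 3 genes (edgeR), beside 31.6% and 28.7% of all tested genes. The median slope of all tested genes was 0.0093 log2 per hour. With 8 genes and shares of this size over all genes, nothing is read from these counts. Values at 0 and 4 h did not overlap for 4 genes that were lower and 2 that were higher at 4 h, while 33.0% and 30.4% of all tested genes had such a separation. Of these calls, the contrast of IGFBP5 was the least firm (0.49 ± 0.18 log2, edgeR adjusted p = 0.0303), and it missed the threshold whichever replicate was left out (edgeR adjusted p from 0.0505 to 0.110). That of IGF2R (0.45 ± 0.13 log2, edgeR adjusted p = 0.00734) missed it without replicate 2 (0.0535) or replicate 3 (0.0520), and that of IGF1R (−0.37 ± 0.11 log2, edgeR adjusted p = 0.0106) without replicate 2 (0.0602). These refits had fewer libraries and left the replicate number out. Fitted on all libraries with the replicate number as a block, IGFBP5, IGF2R and IGF1R each passed (edgeR adjusted p = 0.000209, 1.97e-11 and 1.97e-05).

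**Figure D2:**
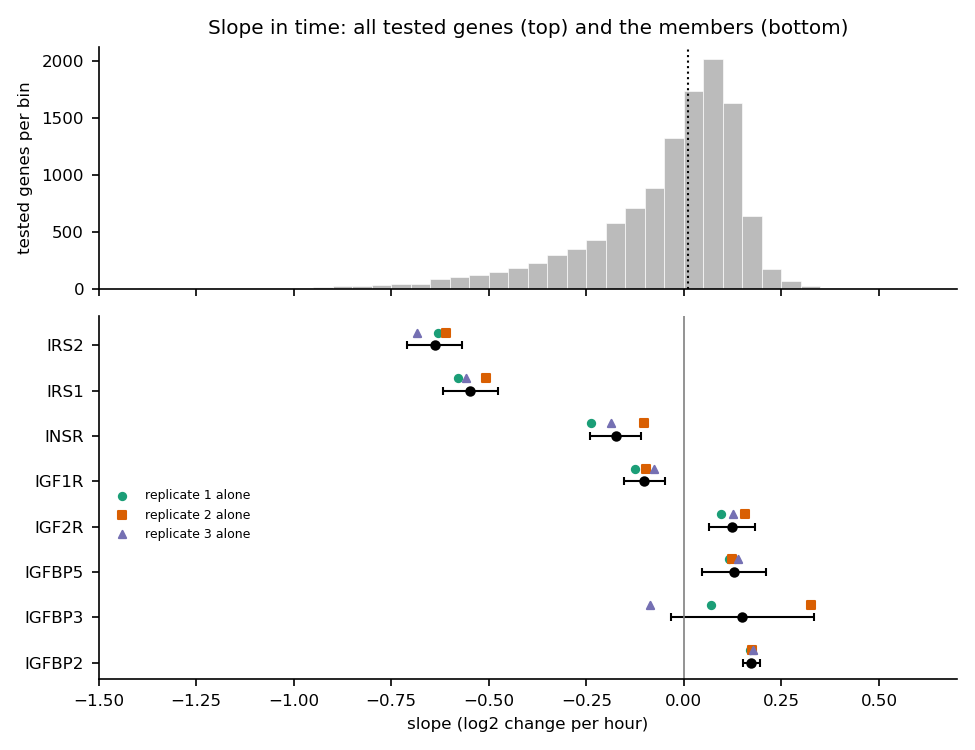
Top, number of tested genes (y axis) per bin of slope in log2 change per hour (x axis), with the median of 0.0093 dotted. Bottom, slope of each tested gene of the set on the same axis, where black points with bars are the edgeR slope and its 95% interval over 12 libraries and coloured symbols are single replicates. IRS2 (−0.64) and IRS1 (−0.55) lie in the left tail, IGFBP2 (0.17) at the right edge of the bulk, and the interval of IGFBP3 spans 0.

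The successive time points showed when each gene moved. From 0 to 1 h, IRS2 alone passed the threshold (−0.45 ± 0.10 log2, edgeR adjusted p = 0.0270), beside 2.24% of tested genes that fell. Without replicate 1 or 2 this early fall of IRS2 was of like size (−0.42 and −0.48 log2) and missed the threshold (edgeR adjusted p = 0.291 and 0.352). IRS1 changed by −0.20 ± 0.084 log2 in that hour, which did not pass (edgeR adjusted p = 0.291) and did with the replicate number as a block (edgeR adjusted p = 0.0381). No gene of the set rose in the first hour by edgeR (0 also at an unadjusted p under 0.05), beside 0.349% of all tested genes. From 1 to 2 h, IRS1 fell by 0.89 and IRS2 by 0.99 on the log2 scale (edgeR adjusted p = 1.50e-05 and 2.79e-05), where 12.5% of tested genes fell. IRS1 thus lost more in the second hour than in the first. This was not particular to IRS1. MYC, JUN and IER2 stood at 56.0%, 51.1% and 49.6% of their 0 h means at 1 h. At 2 h they stood at 10.8%, 13.5% and 12.9%, also a larger log2 fall in the second hour.

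In the same hour IGFBP2 rose by 0.25 log2 (edgeR adjusted p = 0.00130), beside 3.76% of tested genes that rose. With the block, IGF1R (−0.22 log2; edgeR adjusted p = 0.00813 in place of 0.206) and IGF2R (0.28 log2; edgeR adjusted p = 2.93e-06 in place of 0.168) also passed from 1 to 2 h. From 2 to 4 h, IRS1 and IRS2 changed by −0.98 and −1.01 log2 (edgeR adjusted p = 1.25e-05 and 4.77e-05), beside 18.3% of tested genes that fell. IGFBP2 rose by 0.33 log2 (edgeR adjusted p = 9.34e-05), beside 12% that rose. With the block, INSR (−0.35 log2; edgeR adjusted p = 0.0142 in place of 0.0777), IGF2R (0.15 log2; 0.00349 in place of 0.424) and IGFBP5 (0.36 log2; 0.00608 in place of 0.141) passed as well for this interval.

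Per hour, IRS1 therefore changed by −0.20, −0.89 and −0.49 log2 in the 3 intervals and IRS2 by −0.45, −0.99 and −0.51 log2, so that the estimates were largest between 1 and 2 h. A test for departure from a straight line found 0 genes of the set past the threshold by edgeR (2 at an unadjusted p under 0.05, IRS1 and IRS2), where 2.70% of all tested genes passed. IRS1 came closest (edgeR adjusted p = 0.0515) and IRS2 followed (0.225). With the replicate block 3 genes departed, namely IRS1 (edgeR adjusted p = 0.000461), IRS2 (0.00243) and IGF2R (0.0213), with no share over all tested genes at hand. A single half-life is thus an average over 4 h for these genes, and the intervals that meet at a time point share its libraries.

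**Figure D3:**
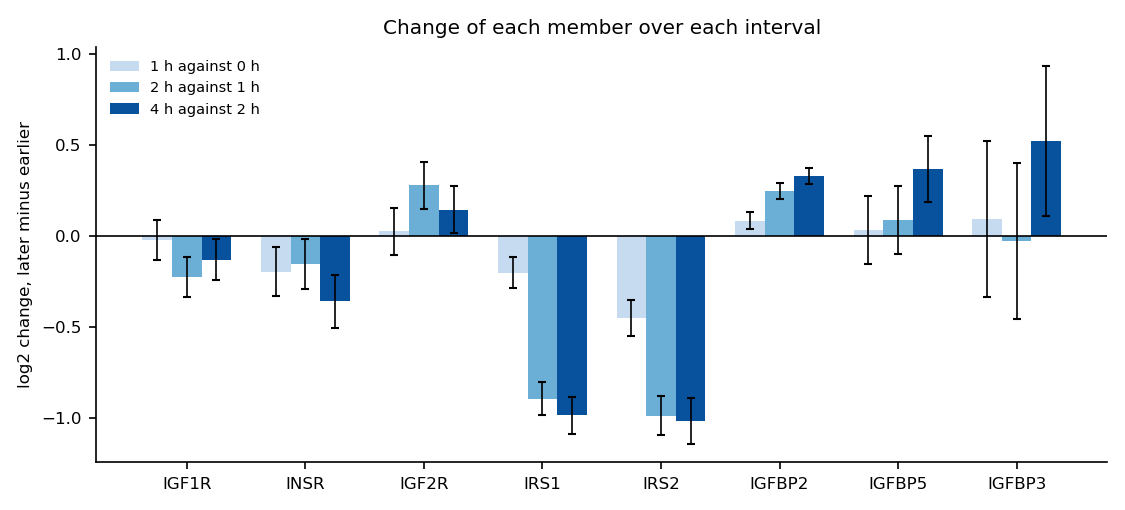
Log2 change between successive time points (y axis, later minus earlier, bars from 0) for the 8 tested genes (x axis), with SE bars from edgeR over 12 libraries. The last interval covers 2 h and the others 1 h. The bars of IRS1 (−0.20, −0.89 and −0.98) and IRS2 (−0.45, −0.99 and −1.01) are longer than those of the receptors from 1 h on.

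Ratios within a library do not depend on how libraries were scaled. The ratio of IGF2R to IGF1R counts was 5.63, 5.07 and 5.68 at 0 h and 10.0, 9.74 and 9.37 at 4 h. It rose by 0.22 ± 0.028 log2 per hour in all 3 replicates (permutation test over 12 libraries, two-sided, adjusted p = 0.00012 over 6 pairs). The ratio of IRS2 to IRS1 counts went from 1.08, 1.13 and 1.04 to 0.959, 0.812 and 0.749. IRS2 counts thus began above IRS1 counts and ended below them in all 3 replicates. They are not corrected for transcript length (8156 bases for IRS2 and 9771 for IRS1), so they do not say which transcript was more abundant. The slope of this ratio, −0.085 ± 0.031 log2 per hour, did not pass after adjustment (permutation p = 0.0237, adjusted p = 0.0712). It did when times were permuted within replicates (permutation test, adjusted p = 0.0259). INSR to IGF1R changed by −0.075 ± 0.046 log2 per hour (permutation test, adjusted p = 0.269, and 0.0259 within replicates), with 0.296, 0.313 and 0.407 at 0 h and 0.212, 0.306 and 0.286 at 4 h. IGFBP5 to IGFBP2 changed by −0.048 ± 0.043 log2 per hour (permutation test, adjusted p = 0.426, and 0.0265 within replicates). The ratios of IGFBP3 to IGFBP2 (−0.061 ± 0.11) and of IGFBP5 to IGFBP3 (0.013 ± 0.11 log2 per hour) had errors larger than their slopes (permutation tests, adjusted p = 0.726 and 0.910).

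The scaling of the libraries turned the slopes of IGF2R and IGFBP5 and not those of the 4 genes that fell. GAPDH and ACTB themselves rose on the TMM scale, by 0.15 and 0.12 log2 per hour, and scaling to their sum moved the median slope of all tested genes by −0.138 log2 per hour, with 98.6% of all calls falling in place of 51.1%. On that scale IGF1R (−0.24), INSR (−0.31), IRS1 (−0.68) and IRS2 (−0.77 log2 per hour) fell, with half-lives of 4.19, 3.21, 1.46 and 1.29 h, and no gene of the set rose past the threshold. Scaling to library totals alone moved the median by −0.039 log2 per hour. Relative to the median gene of each scale the slopes were nearly equal, with 0.114 log2 per hour for IGF2R on both the TMM and the GAPDH plus ACTB scale, 0.164 on both for IGFBP2, and −0.648 and −0.646 for IRS2. Half-lives of IGF1R and INSR thus moved by over 1.5 times with the scaling.

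**Figure D4:**
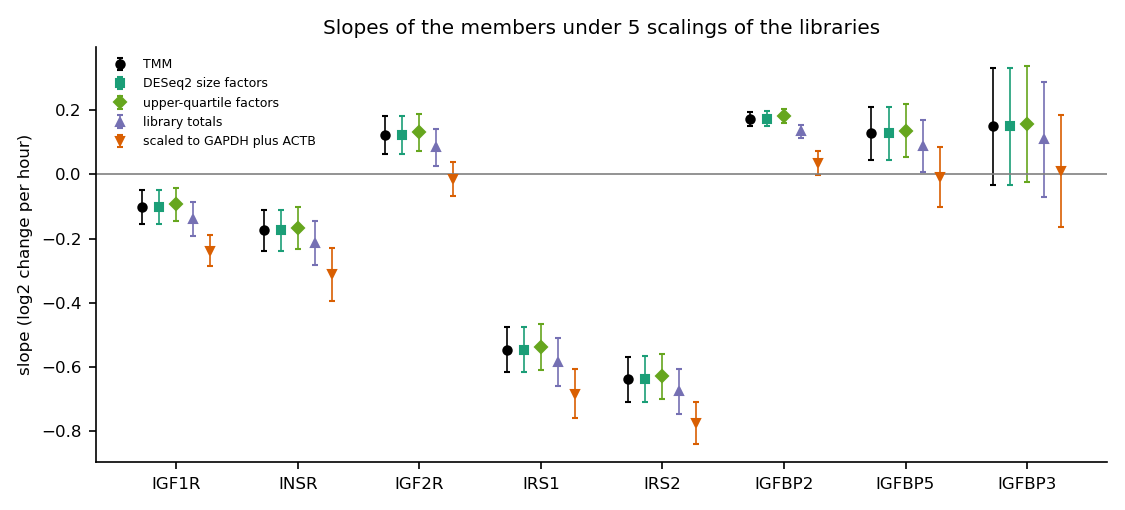
Slope in log2 change per hour (y axis) of the 8 tested genes (x axis) under 5 scalings of the libraries, with 95% intervals from the edgeR SE over 12 libraries. IRS1 and IRS2 stay below −0.5 under each, whereas IGF2R goes from 0.12 with TMM to −0.015, IGFBP5 from 0.13 to −0.0087 and IGFBP2 from 0.17 to 0.036 with GAPDH plus ACTB.

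Before the block, the genes spanned a wide range of levels. Per kilobase of canonical transcript, TMM-scaled levels at 0 h were 218 ± 1.04 CPM per kb for IGFBP2 (SD, n = 3), 20.3 ± 4.28 for IGF2R, 6.71 ± 0.50 for IRS2, 5.17 ± 0.35 for IRS1, 4.25 ± 0.74 for IGF1R, 1.83 ± 0.27 for INSR, 1.55 ± 0.27 for IGFBP5 and 0.578 ± 0.099 for IGFBP3. The ligand IGF1, at 1.27 ± 0.33 CPM per kb, came between IGFBP5 and IGFBP3. In this order IRS1 and IGF1R overlapped in range, as did INSR and IGFBP5, and IGFBP5 and IGF1, while the ranges of the other neighbours did not. IGFBP2 was at percentile 97.8 of tested genes and IGF1R at 30.0.

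The other genes of the pathway were described from a list of 88 genes, of which 72 passed the count filter. Of these 34 fell (47.2%), 21 rose (29.2%) and 17 did not pass the threshold, with a median slope of −0.053 log2 per hour, beside 32.1% and 30.7% and a median of 0.0093 over all tested genes. With GAPDH plus ACTB scaling, 50 fell and 1 rose, beside 64.2% and 0.931% of all tested genes. The 34 genes were among the 50. Of the ligands, IGF1 alone was tested and its slope of 0.064 ± 0.051 log2 per hour did not pass (edgeR adjusted p = 0.284), whereas IGF2 had at most 1 count in any library. Among 7 binding and release genes 1 fell and 3 rose. STC2, a stanniocalcin that inhibits the protease PAPPA, fell from 36.6 ± 1.08 to 22.1 ± 4.01 CPM at 4 h (SD, n = 3; −0.18 log2 per hour). IGFBP6, a binding protein with a preference for IGF2, went from 5.17 ± 0.48 to 8.45 ± 0.52 CPM with TMM (0.18 log2 per hour). Its slope was 0.040 with GAPDH plus ACTB scaling (edgeR adjusted p = 0.384).

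The counts by role stand beside 32.1% of all tested genes that fell and 30.7% that rose on the TMM scale. With so few genes per role, nothing is read from them. Of 11 adaptors of the list 7 fell and 1 rose on the TMM scale. NCK1, an SH2 and SH3 domain adaptor, went from 30.4 ± 1.73 to 5.66 ± 0.56 CPM (SD, n = 3; −0.63 log2 per hour, a half-life of 1.59 h), close to IRS2. SHC1, the adaptor towards the RAS pathway, rose by 0.12 log2 per hour, and had a slope of −0.021 with GAPDH plus ACTB scaling. Of 13 receptor inhibitors and turnover genes 8 fell and 3 rose. The steepest fall was that of SOCS3, which blocks cytokine and insulin receptor signalling, from 26.3 ± 4.50 to 1.75 ± 0.65 CPM (−1.20 log2 per hour, a half-life of 0.832 h). Its lowest count in a library was 9. Half-lives of list genes are averages over 4 h given without an interval, and departure from a straight line was not tabulated for them. PTPRF, a receptor tyrosine phosphatase, rose by 0.13 log2 per hour with TMM, and had a slope of −0.0060 with GAPDH plus ACTB.

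Downstream, the counts again stand beside 32.1% of all tested genes that fell and 30.7% that rose. Of 7 PI3K genes 4 fell and 2 rose, and the regulatory subunits differed: PIK3R1 (p85 alpha) fell from 102 ± 2.70 to 10.6 ± 0.52 CPM (SD, n = 3; −0.83 log2 per hour, a half-life of 1.21 h), while PIK3R2 (p85 beta) rose from 60.3 ± 3.05 to 85.9 ± 9.56 CPM with TMM (0.13 log2 per hour, and −0.0021 with GAPDH plus ACTB). Of 12 genes of the AKT module 6 fell and 3 rose. PHLPP1, a phosphatase of AKT, fell by 0.35 log2 per hour, and AKT1 rose by 0.14 log2 per hour with TMM, against −0.0028 with GAPDH plus ACTB.

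Of 12 TSC and mTOR genes 4 fell and 7 rose on the TMM scale, where 32.1% of all tested genes fell and 30.7% rose. TSC2, a brake on mTOR complex 1, rose by 0.19 log2 per hour and was the 1 list gene that also rose with GAPDH plus ACTB scaling (0.053 log2 per hour, edgeR adjusted p = 0.0439). RICTOR, a subunit of mTOR complex 2, fell by 0.12 log2 per hour. Of 9 AKT substrates and FOXO genes 4 fell and 2 rose. FOXO1 and FOXO3, transcription factors that AKT keeps out of the nucleus, fell by 0.72 and 0.61 log2 per hour, with half-lives of 1.39 and 1.63 h. The lowest count of FOXO1 in a library was 5. BAD, a pro-apoptotic target of AKT, rose by 0.14 log2 per hour with TMM (0.0058 with GAPDH plus ACTB). IRS1, IRS2, NCK1, PIK3R1, SOCS3, FOXO1 and FOXO3 had half-lives under 2 h on the TMM scale, and IGF1R and INSR longer ones. NCK1, PIK3R1, SOCS3 and FOXO1 were named because each was the steepest fall of its role. Nothing is therefore read from this grouping. The lowest 5% limit of all tested genes was −0.49 log2 per hour.

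**Figure D5:**
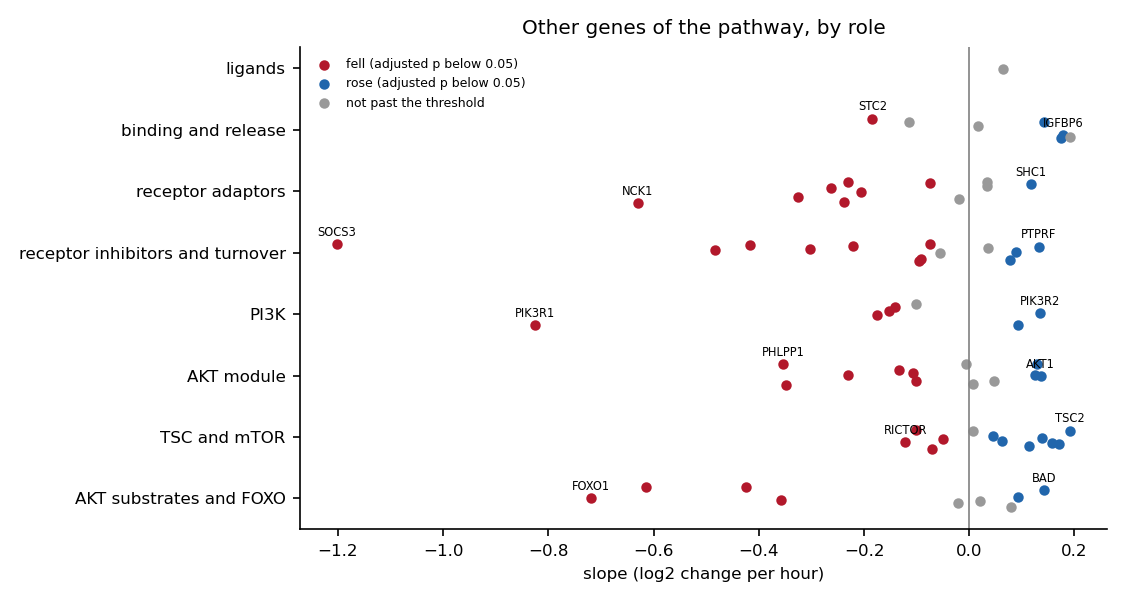
Slope in log2 change per hour on the TMM scale (x axis) of the 72 tested list genes, by role (y axis, points spread vertically only for legibility). Red points fell, blue points rose and grey points did not pass an edgeR adjusted p of 0.05. SOCS3 (−1.20), PIK3R1 (−0.83), FOXO1 (−0.72) and NCK1 (−0.63) stand to the left, and of the 21 rising genes 1 rose with GAPDH plus ACTB scaling.

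Profiles over the 12 libraries were compared with those of 8855 genes that averaged 100 counts or more, by the root mean square distance of centred log2 CPM. Nearest to IRS2 were TRIM32 (0.073), PLEKHO2 (0.085) and FZD8 (0.116), against a median distance of 0.978. Near IGFBP2 were DDOST (0.029) and BSG (0.030), against a median of 0.270.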

How the data were processed

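Poly(A) RNA of shA673-1c cells was sequenced in 12 libraries from stranded TruSeq kits. The values are whole-number read counts for each gene symbol, deposited without normalization. The submitters' processing notes name FastQC, STAR and hg19 without roles, and the counter and its handling of strand and shared reads are not given in the sources used here. The paper's methods describe Prinseq, STAR and Salmon with GRCh38 for reads of this kit in general, without naming these libraries, so which steps made these counts is not settled.

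Counts were fitted with edgeR 4.0.16 (R 4.3.3) by glmQLFit and glmQLFTest, with TMM factors, a mean of at least 10 counts (12032 genes), time in hours or as 4 groups, no block, and Benjamini-Hochberg adjustment over all tested genes at 0.05. Half-life is -1 over the slope. Ratios used a pseudocount of 0.5 and 100000 permutations (numpy 2.4.6). Alternatives included DESeq2 1.42.0. The steps were tested on simulated data. Replicates of a time differed by more than sampling noise (chi-square per degree of freedom 3.23 to 8.73).

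Members and lists were chosen with earlier results of these data known. The genes named were all 9 members, per role of the list the steepest consistent fall and rise plus IGF1, IGF2, AKT1, FOXO1 and FOXO3, the checks MYC, JUN, IER2, GAPDH and ACTB, and the 3 nearest profiles of the members with the steepest fall and rise. Some genes that this rule names are not reported here. Replicate numbers come from the labels, and samples with the same number deviated together in all 18 pairs (mean r = 0.431, from 0.300 to 0.612), so the numbers pair the samples. The 36 pairs of different numbers had a mean r of -0.212. Deviations were taken from the mean of the 3 libraries of a time, which ties this value to the first, so it is no separate support. What samples of the same number shared was not tested. The fits described above leave the number out, and those with it as a block are given as alternatives.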

Additional observations from a re-analysis of the deposited data

How the results depend on the processing

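Over 374 recomputed values of single genes, 323 kept their direction and side of the threshold, 16 passed it newly, 20 no longer passed and 15 changed sign. IRS1 and IRS2 kept their slope calls in 13 of 13 alternatives (from −0.684 to −0.521 and from −0.775 to −0.626 log2 per hour).

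With GAPDH plus ACTB scaling, 0 genes of the set rose by slope, from 0 to 4 h, from 1 to 2 h or from 2 to 4 h, 4 fell from 2 to 4 h, and 1 list gene rose. IGF2R changed sign by slope (−0.015), from 0 to 4 h (−0.094), from 0 to 1 h (−0.086) and from 2 to 4 h (−0.16 log2). IGFBP5 did so by slope (−0.0087), from 0 to 4 h (−0.050), from 0 to 1 h (−0.083) and from 1 to 2 h (−0.038), and IGFBP2 (−0.030) and IGFBP3 (−0.023) from 0 to 1 h. All tested genes then gave 7729 falls and 112 rises, against 3859 and 3694 with TMM. With library totals 4702 fell and 2244 rose, 1 gene of the set rose from 0 to 4 h and 1 departed from a line (IRS1, edgeR adjusted p = 0.0284). On either scale, shares over all tested genes were not tabulated beyond the slope, so nothing is read from the counts of the set. Upper-quartile factors, tried after the data were seen, changed no slope call.

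With the replicate block, 2 genes of the set fell from 0 to 1 h, 3 fell (IGF1R newly) and 2 rose from 1 to 2 h, 3 fell (INSR newly) and 3 rose from 2 to 4 h, and 3 departed from a line. Shares over all tested genes were not tabulated for these comparisons with the block, so nothing is read from the counts. Times permuted within replicates brought the ratios INSR to IGF1R (−0.075), IRS2 to IRS1 (−0.085) and IGFBP5 to IGFBP2 (−0.048 log2 per hour) past the threshold. The block changed no other call of the set. Of the 72 tested list genes, 35 fell and 24 rose by slope with the block, beside 34.8% and 36.2% of all tested genes. From 0, 1 and 2 h alone, 2 fell and 1 rose, with fewer libraries, where 18.4% of 12060 tested genes fell and 12% rose.

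Without 1 replicate, 0 to 1 genes of the set fell from 0 to 1 h and 1 to 2 rose from 0 to 4 h. Shares over all tested genes were not tabulated for these contrasts with fewer libraries, so nothing is read from the counts. Signs changed from 0 to 1 h for IGF1R (from −0.093 to 0.098, positive without replicate 1), and for IGF2R (−0.042 to 0.13), IGFBP3 (−0.17 to 0.33) and IGFBP5 (−0.0068 to 0.088), each negative without replicate 2, and from 1 to 2 h for IGFBP3 (−0.13 to 0.11 log2, positive without replicate 3). The ratio IGFBP5 to IGFBP3 ranged from −0.080 to 0.12 and IGFBP3 to IGFBP2 from −0.17 to 0.027 log2 per hour. Apart from these constructions, the cause was not tested. Depth limits IGFBP3 (7 to 35 counts). Whether reads of GRB10 could be counted under that symbol was not tested.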
